A study of Rattus norvegicus with 6 samples.

Results

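Lcn2 and a set of genes linked to STAT3 signalling and the acute-phase response were followed in rat rostral ventromedial medulla (RVM), part of the brainstem, from which descending fibres can strengthen or weaken the passage of pain signals. The set was named by 6 Ensembl identifiers, of which 5 have a row among the 22976 genes of the table: Lcn2 (ENSRNOG00000013973), Stat3 (ENSRNOG00000019742), Timp1 (ENSRNOG00000010208), A2m (ENSRNOG00000028896) and Cp (ENSRNOG00000011913). The identifier given for Socs3, an inhibitor of the pathway, had no row and is not analysed here. The table holds no symbols and the reference table used here holds no Ensembl identifiers, so the pairing of identifier and symbol is that of the selection rule and was not checked against an annotation. The genes were selected on their FPKM values in the same CFA and saline libraries that are compared here. Their values are therefore a description, and no test of them is given.

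The 6 libraries came from rats that received 50 µL of fluid into each jaw joint (temporomandibular joint), on both sides, with tissue profiled on day 3. In 3 of them the fluid was CFA (complete Freund's adjuvant, killed mycobacteria in oil, which inflames the joint). In the other 3 the fluid was saline, so both groups carry the injections themselves. No group received the oil alone, so effects of the oil and of the mycobacteria cannot be told apart. The strain, sex and age of the rats, and whether each library stands for 1 animal, were not stated in the labels, and the spread between libraries may be technical. The library total by which FPKM was scaled, derived from the whole steps of the deposited values, ran from 27534174 to 44977905 fragments. Fragments of the listed genes made up 98.4% to 98.5% of it, so reads outside genes or not aligned may be missing from it. No marker of a cell type or of the RVM could be looked up without symbols, so the labelled tissue was not checked and a change in the mix of cells was not tested. In such bulk tissue, fewer or more cells of a type and less or more RNA per cell cannot be told apart.

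STAT3 is a transcription factor that cytokines of the interleukin-6 family switch on through receptors carrying the shared subunit gp130 and through JAK kinases, which phosphorylate it. Phosphorylated STAT3 enters the nucleus and raises genes of the acute-phase response, a set of secreted proteins best known from the liver, together with SOCS3, which feeds back to block the kinases. Lcn2 encodes lipocalin-2, a secreted protein that binds the iron-carrying siderophores of bacteria, and in brain it is known as a gene of reactive astrocytes. RNA levels do not measure phosphorylation.

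The sequence around an annotated start of each gene was set beside the levels as a description, and shared control of the genes was not tested. RefSeq windows on GRCr8 (250 bases before to 50 bases after the start that the table uses) were matched by symbol for 4 of the 5 genes, Lcn2, Stat3, Timp1 and Cp. A gene can have more than 1 annotated start, and the start used lay inside the outer 5′ end of the RefSeq gene by 71 bases in Lcn2, 154 in Stat3, 334 in Cp and 1456 in Timp1. The Timp1 and Cp windows therefore lie wholly within the annotated genes, and their positions, matches and GC content hold for those internal starts only. Which start the RVM uses was not tested. Each is printed 5′ to 3′ on the strand of the gene. Capitals mark every match, on either strand, to any of 7 motifs: TTCNNNGAA for STAT factors, TTNNGCAA for C/EBP, the NF-kB motif in its loose form (GGG, any 5 bases, then CC), TGANTCA for AP-1, TATAAA for the TATA box, CCAAT for the CCAAT box and GGGCGG for the GC box.
Lcn2 window, GRCr8 chr3:36081731-36082030, minus strand: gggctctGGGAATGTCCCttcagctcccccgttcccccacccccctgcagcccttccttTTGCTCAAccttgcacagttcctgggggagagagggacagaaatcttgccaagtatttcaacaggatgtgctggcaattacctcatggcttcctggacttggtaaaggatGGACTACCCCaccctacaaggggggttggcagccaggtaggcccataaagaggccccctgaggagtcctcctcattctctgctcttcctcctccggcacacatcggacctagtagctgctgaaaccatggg
Cp window at an internal start, GRCr8 chr2:104368420-104368719, plus strand: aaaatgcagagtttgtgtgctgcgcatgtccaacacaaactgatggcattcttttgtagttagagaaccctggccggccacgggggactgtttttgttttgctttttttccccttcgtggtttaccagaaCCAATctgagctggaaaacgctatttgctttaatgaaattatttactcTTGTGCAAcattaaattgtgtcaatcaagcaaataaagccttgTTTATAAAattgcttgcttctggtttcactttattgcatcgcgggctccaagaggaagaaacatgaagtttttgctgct
Timp1 window at an internal start, GRCr8 chrX:3771073-3771372, minus strand: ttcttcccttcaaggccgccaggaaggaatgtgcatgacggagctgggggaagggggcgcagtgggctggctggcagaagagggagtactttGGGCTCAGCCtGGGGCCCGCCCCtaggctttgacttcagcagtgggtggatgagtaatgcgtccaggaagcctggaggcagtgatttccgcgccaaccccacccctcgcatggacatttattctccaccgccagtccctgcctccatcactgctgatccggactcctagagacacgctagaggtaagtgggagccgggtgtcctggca
Stat3 window, GRCr8 chr10:86363310-86363609, minus strand: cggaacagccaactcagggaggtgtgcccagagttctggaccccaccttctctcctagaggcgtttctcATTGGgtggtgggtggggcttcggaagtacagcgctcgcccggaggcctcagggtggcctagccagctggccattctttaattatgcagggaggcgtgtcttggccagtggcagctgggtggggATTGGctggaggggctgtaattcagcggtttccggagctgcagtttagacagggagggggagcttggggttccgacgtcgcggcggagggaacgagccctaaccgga

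The STAT motif TTCNNNGAA had no match in any of the 4 windows, and 8.87% of all 33469 RefSeq windows held one. The AP-1 letters also had no match in the 4 windows, with 7.33% of all windows holding one. The C/EBP letters TTNNGCAA matched in 2 of the 4 windows against 10.6% of all windows. In Lcn2 the match was TTGCTCAA, starting 191 bases upstream of the annotated start and read on the opposite strand, and in Cp it was TTGTGCAA, starting 72 bases upstream of the internal start. C/EBP factors are known partners of STAT3 in acute-phase genes of the liver. The loose NF-kB motif, which 47.3% of all windows hold, matched in Lcn2 and Timp1. In Lcn2 the matches were GGGAATGTCC, starting 243 bases upstream and overlapping a match on the other strand, and GGACTACCCC, starting 81 bases upstream. In Timp1 one match, GGGCTCAGCC, starts 158 bases upstream of the internal start, and the others start 147 to 145 bases upstream of it and overlap each other and the GC box at 142 bases. GC boxes occur in 33.1% of all windows. Cp alone of the 4 held a TATAAA, starting 27 bases upstream and overlapping its reverse match, where 14.2% of all windows hold one. CCAAT matched in Cp and at 2 positions in Stat3, and 37.5% of all windows hold it. The windows also differed in composition. GC content was 40.3% in Cp, 57.3% in Lcn2, 61.3% in Timp1 and 62.3% in Stat3, against a median of 51.7% over all windows. A match shows only that the letters are present, and the lack of one does not show that no binding site is there.

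Across the genes, every one was higher in CFA than in saline in every library, from a ratio of group means of 1.28 for Stat3 to 139 for Lcn2. FPKM scales a gene's fragments by its length and by the total of the library. Of the 13566 genes that averaged 1 FPKM or more, 21.2% had all CFA libraries above all saline libraries, and all 5 genes were among them. Their selection rested on this contrast, so this count supports nothing about them. Lcn2 passed the filter of 1 FPKM only through its CFA libraries. As background, 18.8% of the genes tested passed an adjusted p of 0.05 by limma on log2(FPKM + 1) with Benjamini-Hochberg adjustment, and 11.3% passed as higher. The median log2(FPKM + 1) difference of the 5 selected genes was 2.21, against 0.012 over all genes tested. The selection on this contrast favours such a gap, so the gap also supports nothing about them.

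Stat3, the transcription factor of the set, was the most abundant of the genes in saline and differed least. Its level was 11.3, 10.9 and 11.8 FPKM in saline replicates 1, 2 and 3 and 15.7, 14.1 and 13.8 FPKM in CFA replicates 1, 2 and 3. The groups did not overlap, but the lowest CFA library exceeded the highest saline library by only 2.00 FPKM. The means were 11.4 ± 0.425 and 14.5 ± 1.02 FPKM (SD, n = 3 each), a ratio of 1.28 (SE 0.0590). On the log2(FPKM + 1) scale the difference was 0.33 (SE 0.061). CFA replicate 1 stood above the other two CFA libraries. The variance between the 3 CFA libraries was 14.1 times counting noise in fragments, against 3.19 times in saline. This measure grows with the number of fragments at the same relative spread, so it does not rank genes by spread. The coefficient of variation of Stat3 in CFA was 7.04%, below the 8.36% of Timp1. The saline libraries together held 7402 fragments of Stat3 and the CFA libraries 7952, before scaling by library totals. Those totals ran from 34440104 to 44977905 fragments in saline and from 27534174 to 38260153 in CFA.

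Lcn2 was low in saline and the most abundant of the 5 genes in CFA. It stood at 0.530, 0.487 and 0.670 FPKM in saline replicates 1, 2 and 3, from 27, 19 and 29 fragments. It stood at 77.0, 82.3 and 75.3 FPKM in CFA replicates 1, 2 and 3, from 3337, 2569 and 2756 fragments. Every CFA library was at least 112 times the highest saline library. The group means were 0.562 ± 0.0956 and 78.2 ± 3.68 FPKM (SD, n = 3 each), and their ratio was 139 (SE 14.2). The uncertainty of this ratio comes mostly from saline, where the exact 95% Poisson interval of saline replicate 2 runs from 11.4 to 29.7 fragments and the coefficient of variation was 17.0%, against 4.71% in CFA. These intervals cover counting error only. The log2(FPKM + 1) difference of 5.66 (SE 0.063) understates the ratio, because the pseudocount of 1 FPKM exceeds the saline level.

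Cp encodes ceruloplasmin, a copper-carrying ferroxidase that oxidises iron as it leaves cells and, in brain, is known from astrocytes as a membrane-anchored form. It had the next largest difference after Lcn2. Cp measured 3.09, 3.30 and 3.34 FPKM in saline replicates 1, 2 and 3 and 23.9, 22.5 and 23.9 FPKM in CFA replicates 1, 2 and 3. The libraries of each group lay close together and the groups far apart. The means were 3.24 ± 0.134 and 23.4 ± 0.822 FPKM (SD, n = 3 each), a ratio of 7.22 (SE 0.226) and a log2(FPKM + 1) difference of 2.52 (SE 0.039).

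The protease inhibitors of the set came next. Timp1 encodes a secreted inhibitor of matrix metalloproteinases. Its level was 2.34, 2.33 and 2.37 FPKM in saline replicates 1, 2 and 3 and 13.4, 14.5 and 15.8 FPKM in CFA replicates 1, 2 and 3. The saline libraries were almost equal, with a coefficient of variation of 0.860%, and the CFA libraries varied by 8.36%. The saline values rested on 92, 70 and 79 fragments, and their variance was 0.0056 times counting noise, so their closeness is tighter than counting alone usually gives. The ratio of the means, 2.35 ± 0.0202 and 14.6 ± 1.22 FPKM (SD, n = 3 each), was 6.20 (SE 0.301), and the log2(FPKM + 1) difference was 2.21 (SE 0.065). Both SEs take the saline spread from these nearly equal values, which lies below counting error, and so understate the uncertainty.

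A2m encodes alpha-2-macroglobulin, which traps proteases of many classes and is a major acute-phase protein of the rat. It was at 4.46, 4.82 and 4.60 FPKM in saline replicates 1, 2 and 3 and at 12.7, 12.2 and 12.9 FPKM in CFA replicates 1, 2 and 3. Neither group varied much, with coefficients of variation of 3.95% in saline and 2.78% in CFA. The means were 4.63 ± 0.183 and 12.6 ± 0.351 FPKM (SD, n = 3 each), a ratio of 2.73 (SE 0.0761) and a log2(FPKM + 1) difference of 1.28 (SE 0.035).

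**Figure D1:**
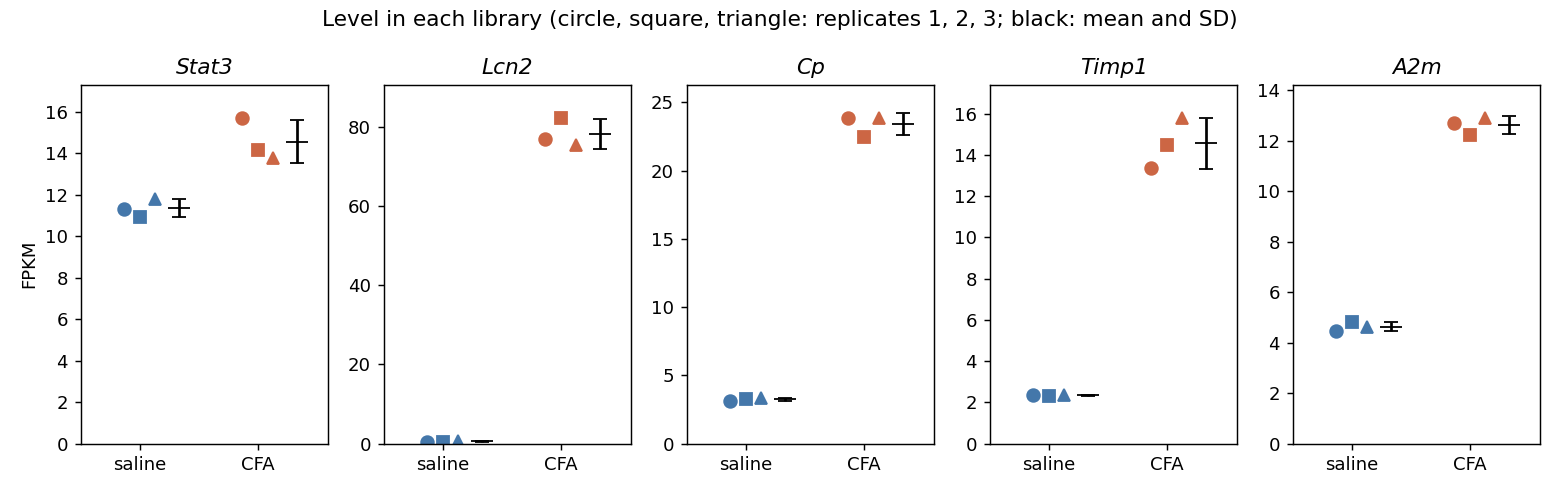
Level of each gene in FPKM (vertical axis, from 0, with its own scale per panel) in the saline and CFA libraries. Symbols mark replicates and black bars the mean and SD of 3 libraries. In every panel the CFA libraries lie above the saline libraries, with the narrowest gap for Stat3 (2.00 FPKM) and the widest for Lcn2 (74.6 FPKM).

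The order of the levels differed between the groups. FPKM is given per length, so the genes can be set against each other. In all 3 saline libraries the order from high to low was Stat3, A2m, Cp, Timp1 and Lcn2, and no neighbours overlapped between libraries. In all 3 CFA libraries Lcn2 was highest, Cp next and A2m lowest. Stat3 and Timp1 lay between and could not be ordered, since Stat3 was above Timp1 in CFA replicate 1 and below it in CFA replicates 2 and 3. Their CFA means were 14.5 and 14.6 FPKM.

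The summed level of the 5 genes was 22.1 ± 0.554 FPKM in saline and 143 ± 2.07 FPKM in CFA (SD, n = 3 each). Stat3 made up 51.3% ± 1.12 of the sum in saline and 10.2% ± 0.746 in CFA, while Lcn2 went from 2.53% ± 0.368 to 54.5% ± 1.77. Cp and Timp1 held similar shares in both groups, 14.7% ± 0.440 and 16.3% ± 0.798 for Cp and 10.6% ± 0.188 and 10.2% ± 0.911 for Timp1. The share of A2m was 20.9% ± 0.984 in saline and 8.81% ± 0.370 in CFA.

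Ratios within a library, which do not depend on how libraries are scaled to each other, showed the unequal size of the differences. Lcn2 stood at 0.0494 ± 0.00656 times the level of Stat3 in saline and 5.39 ± 0.465 times in CFA (SD, n = 3 each). For Cp over Stat3 the ratio was 0.286 ± 0.0147 in saline and 1.61 ± 0.108 in CFA. Between the protease inhibitors, Timp1 over A2m was 0.507 ± 0.0221 in saline and 1.15 ± 0.0899 in CFA. The steadiest ratio within CFA was Cp over A2m, at 1.85 ± 0.0217, which was 0.701 ± 0.0219 in saline. The CFA libraries did not share an order across genes. Lcn2 was highest in CFA replicate 2, Stat3 in CFA replicate 1 and Timp1 and A2m in CFA replicate 3, while Cp was lowest in CFA replicate 2.

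**Figure D2:**
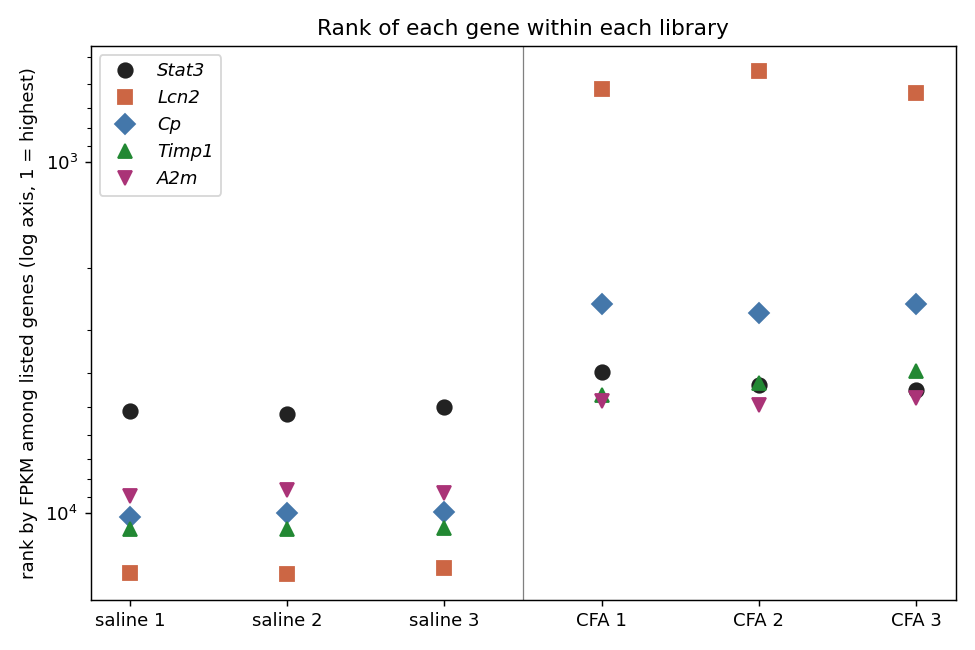
Rank of each gene by FPKM among the 22976 listed genes in each library (vertical axis, log scale, rank 1 highest at the top). Each symbol is 1 gene in 1 library. Lcn2 moved from ranks 14332 to 14967 in saline to ranks 550 to 634 in CFA, and Stat3 from 4975 to 5233 to 3953 to 4448.

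Within each library the genes also took other places among all listed genes. Lcn2 ranked between 14332 and 14967 in saline and between 550 and 634 in CFA. The ranks of Cp were 9940 to 10234 in saline and 2542 to 2699 in CFA. Timp1 was ranked 11053 to 11114 in saline and 3928 to 4594 in CFA, and A2m 8596 to 8930 in saline and 4715 to 4931 in CFA. Stat3 stayed within 3953 to 5233 over all 6 libraries.

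The genes were spread widely along the distribution of differences over all genes tested. Lcn2 had the largest log2(FPKM + 1) difference of the 13566 genes. On this scale 13 genes had a larger rise than Cp, 22 than Timp1 and 107 than A2m. For Stat3 there were 830 such genes, or 6.12% of the genes tested. The pseudocount of 1 FPKM shrinks the differences of low genes on this scale. By ratio of group means, Lcn2 ranked 1, Cp 34, Timp1 45, A2m 192 and Stat3 1075 among genes tested and detected in saline. In FPKM gained, an absolute amount, Lcn2 ranked 16 with 77.6 FPKM and Cp 75 with 20.2 FPKM. Timp1 gained 12.2 FPKM and Stat3 3.20 FPKM, with A2m between them.

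**Figure D3:**
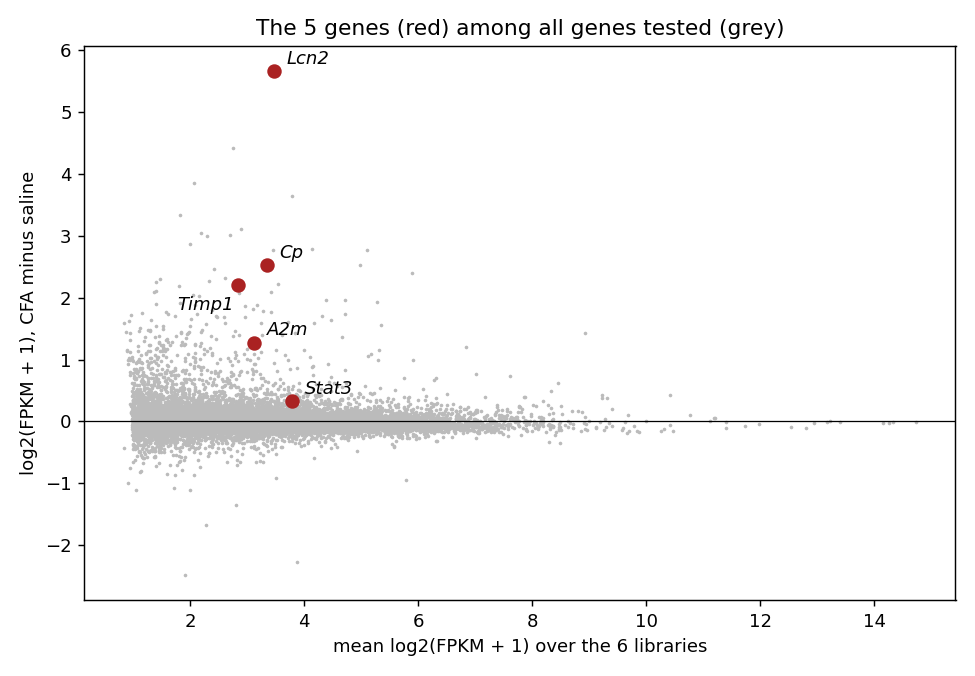
Difference in log2(FPKM + 1) between CFA and saline (vertical axis) against the mean log2(FPKM + 1) over the 6 libraries (horizontal axis) for the 13566 genes tested, each a grey point, with the 5 genes in red. Lcn2 lies above all other points at 5.66, and Stat3 at 0.33 lies close to the upper edge of the mass of genes.

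Likeness of profile to other genes was measured as the root mean square distance over the 6 libraries between log2(FPKM + 1) values, each gene centred on its own mean. No other gene came closer to Lcn2 than 0.65, and the fifth nearest lay at 1.28. Stat3 had 624 genes within 0.1 of its profile, A2m 41, Timp1 5 and Cp 2, the members of the set left out. The identifiers of these genes have no symbol in the sources used here, so they are not named, and with 6 libraries in 2 groups the measure mostly reflects the size of the group difference.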

How the data were processed

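Poly-A RNA of the RVM was read from both ends of each fragment on a DNBSEQ-T7, per the labels' protocols. The authors deposited FPKM values for 22976 genes, 1 column per library. The tools listed, without their roles, were DESeq2 1.30.1, StringTie 2, HISAT2 2 and fastp 0.21.0, with the build mRatBN7.2, per the submitters' processing notes. The labels do not state how strand and shared reads were handled.

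The genes, gene lists, motifs and rule for named genes were chosen with earlier results of these data known. The rule named all genes of the set, the called genes of each pathway list and the genes most like Lcn2. Because 0 of the 22976 identifiers matched a symbol in the RefSeq table (GRCr8), the 24 lists of pathway and marker genes were not analysed, and no gene outside the set is named.

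Groups came from the sample titles. Genes averaging 1 FPKM or more were fitted as log2(FPKM + 1), with a pseudocount of 1 FPKM, by limma 3.58.1 in R 4.3.3 (eBayes with a trend, two-sided, Benjamini-Hochberg over all genes tested, 4 residual degrees of freedom). The fit served only to give the background share of calls. The SE of a ratio was propagated from the SDs of both groups, and the SE of a log2 difference came from the spread within both groups. Values moved in whole steps, and 22962 genes (99.9%) came out as whole fragments within 0.0001. These steps give the library totals behind FPKM, and the fragments give counting error, with exact Poisson intervals at 95%. Variance over counting noise is the chi-square of a gene's fragments against library totals, per degree of freedom. Both the recovery and the fit were tested on simulated data. Python 3.11.15, numpy 2.4.6, pandas 2.3.3, scipy 1.17.1 and matplotlib 3.10.9 made the tables and figures. Libraries of the same replicate number did not deviate together (correlations across genes of -0.021 to 0.023). The alternatives tried were other pseudocounts, filters, scalings, variance moderation, a block for the replicate number and each library left out.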

Additional observations from a re-analysis of the deposited data

How the results depend on the processing

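All 5 genes stayed higher in CFA under every alternative that recomputed their values (other pseudocount, scalings, block and each library left out). The log2 differences of Lcn2, Timp1, A2m and Cp were 6.89, 2.58, 1.43 and 2.81 with a pseudocount of 0.1 FPKM, and 6.31, 2.43, 1.37 and 2.70 after scaling every library to one common, larger total (TPM-like). Both settings make the pseudocount smaller relative to the values and so widen the differences of low genes by construction. With quantile scaling A2m was at 1.23, and the cause was not tested. With each library left out in turn, the differences ranged from 5.63 to 5.71 for Lcn2, 0.28 to 0.37 for Stat3, 2.50 to 2.55 for Cp, 2.16 to 2.27 for Timp1 and 1.25 to 1.30 for A2m. Genes called at an adjusted p of 0.05 (limma) numbered 2545, of which 1530 were higher. They numbered 1758 to 1997, with 1130 to 1216 higher, with a library left out. The share called higher varied with scaling, at 1195 of 2588 with quantile scaling and 1363 of 2678 with median ratio scaling. With the replicate number as a block 2086 were called, 1277 of them higher, and the differences of the 5 genes were the same by construction. The alternatives for the pathway lists were not run, for want of symbols. Depth limits mainly Lcn2 in saline, with 75 fragments over 3 libraries, and Timp1 in saline, with 241.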
